A study of Rattus norvegicus with 18 samples.

Results

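The cytosolic ribosomal protein genes were followed in the nucleus pulposus of rats, the soft centre of the intervertebral disc, at 2, 10 and 20 months of age. Members were the entries of the gene table whose name is that of a protein of the large (Rpl, Rplp) or small (Rps, Rpsa) subunit of the cytosolic ribosome, that reached an FPKM of 1 in 3 or more of the 9 libraries. FPKM is a fragment count divided by transcript length and by the mapped fragments of the library. Of 97 entries with such a name, 95 passed, out of 11708 genes tested and 18923 listed. They carry 85 different names, 57 belong to the large and 38 to the small subunit, and 20 have a single exon. The entries below the filter were Rpl3l (0 to 0.932 FPKM) and Rpl30l1 (0.144 to 0.805 FPKM).

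The study prepared poly(A) RNA from nucleus pulposus and sequenced it before and after immunoprecipitation with an antibody to N6-methyladenosine. The 9 libraries used here are those made without immunoprecipitation, 3 per age, and the 9 immunoprecipitated libraries are not analysed here. The groups are rats aged 2 months, 10 months and 20 months. The labels give the tissue and the age, and no strain, sex, treatment or pooling of animals. They do not say whether the libraries of an age come from separate animals, so the p-values reflect only how these libraries spread, and that spread may be technical.

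The cytosolic ribosome is built from ribosomal RNA and many small proteins, most of them present in a single copy per ribosome. Mammalian ribosomal protein mRNAs belong to the TOP class: they begin with a C followed by a run of pyrimidines, a sequence that LARP1 binds and through which mTORC1 signalling controls their translation. Ribosomal protein genes usually have several exons, while many copies without introns, made from their mRNAs by reverse transcription, lie elsewhere in the genome. Such copies share most of their sequence with the gene, so reads can be assigned to either.

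The libraries held 3.53 to 5.04 gigabases of alignments, a size computed from FPKM and coverage. Read length was not measured but estimated from coverage, as the commonest number of covered bases on sparsely covered transcripts. This estimate was 132 bases in every 2- and 10-month library and 141 bases in every 20-month library. Between 85.6 and 86.1% of the bases lay on listed transcripts at 2 and 10 months, and 80.1 to 80.9% at 20 months. These features cannot be told apart from age in either comparison with 20 months. Of 11 markers of nucleus pulposus and notochord, 9 were in the table and all 9 were tested, with a summed level of 21277 to 22476, 17637 to 17863 and 17667 to 18199 FPKM from the youngest to the oldest age. Tbxt, the notochord transcription factor, stood at 2097 to 2486 FPKM in all 9 libraries. Other markers of this list moved, and not in 1 direction. The highest 20-month library for Krt19 (3412 FPKM) lay below its lowest 2-month library (5129 FPKM). No older library exceeded 152 FPKM for Col2a1, whose lowest 2-month value was 299 FPKM. Every 20-month library was higher for Krt18 (1494 FPKM or more) than the 2-month ones (1229 FPKM each). Krt8 and Acan were lowest in the 10-month libraries. Red blood cell markers summed to 80.4 to 91.5, 9.25 to 10.3 and 35.2 to 41.4 FPKM at the 3 ages, and leukocyte markers to 15.6 to 22.2 FPKM. Osteoclast or bone markers summed to 16.0 to 16.8, 9.94 to 11.1 and 5.10 to 6.76 FPKM, lower at each later age, and annulus or tendon markers to 12.9 to 13.8, 4.93 to 5.34 and 6.53 to 12.4 FPKM. Skeletal muscle markers summed to 1.71 to 14.7 FPKM in 8 libraries and to 152 in the 20-month library 3. The part of these other cells in the changes below was not tested, other than by leaving out that library. In bulk RNA, fewer cells of a type and less RNA per cell cannot be told apart.

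Start sites are shown first, since the TOP sequence is what these mRNAs are known for. RefSeq start sites on the rat build GRCr8 matched 56 names of members with several exons. Each line below gives 10 bases before and 18 bases from the annotated start, 5′ to 3′ on the gene's strand. Capitals mark a run of a C followed by at least 4 C or T that lies closest to the start, within 5 bases. The members shown are described below and include rises and falls, with and without such a run.
Rpl10 (chrX:157205840-157205867, plus strand): gtgggagcgtCTCTTTTCCTCTggcgcg
Rplp1 (chr8:71290855-71290882, minus strand): cgcatgtgatCCTTTCCTCagctgccgc
Rpl23 (chr10:83272167-83272194, minus strand): cttcctttctgaCTCTTTCCggacgctc
Rps23 (chr2:23814507-23814534, plus strand): ccttcctgCCTCTCTTCTCTCTTTCTCT
Rpl29 (chr8:115947633-115947660, plus strand): tttctCTTTCTCTTCCggtcccaggcgc
Rpl5 (chr14:1995208-1995235, minus strand): ctttcccacgtcgcttgcgtcctggagg
Rps3 (chr1:163195759-163195786, minus strand): ttcagcggcgcgcggcagcaagatggcg
Rpl36 (chr9:1533770-1533797, plus strand): cggccgccatcggaaagctgcaggtaag

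A C at the annotated start with at least 4 C or T after it was found in 17 of the 56 members (30.4%). The share was 3.11% of 27457 RefSeq genes. Pyrimidines before the start were allowed, so these counts include runs that began upstream and span the start. Within 5 bases on either side, such a C was found in 33 of 56 (58.9%) and in 19.0% of the RefSeq genes. With at least 6 C or T after the C, the shares at the start were 21.4% and 1.27%. Only the sense strand was searched, and a match describes the letters of the window. Where transcription starts in this tissue was not measured, and annotated starts may lie elsewhere. A window without a run therefore does not show that the mRNA lacks a TOP sequence. Rpl10 and Rplp1 carry the run at the first base, Rps23 carries 20 pyrimidines from 2 bases before it to the end of the window, and Rpl5, Rps3 and Rpl36 carry no run there. Entries with such a C at the start itself had a median log2 change of 0.40 from 2 to 20 months and those without it 0.63 (17 and 41 entries). With a run within 5 bases the medians were 0.59 and 0.65 (34 and 24 entries); these differences are given without a test.

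Most ribosomal protein genes rose with age, already from 2 to 10 months and more by 20 months. Changes are on the log2(FPKM + 1) scale and were tested with limma over all 11708 genes, and an entry was called where the p adjusted by Benjamini-Hochberg was below 0.05. From 2 to 10 months, 60 of the 95 entries rose, where 19% of all genes tested rose, and 1 fell, where 11.4% of all genes did. From 2 to 20 months, 76 rose and 5 fell, against 18.6% and 49.6% of all genes. From 10 to 20 months, 66 rose and 6 fell, against 11.4% and 53.3% of all genes. The median change of the members was 0.24, 0.67 and 0.39 in these comparisons, beside 0.04, −0.20 and −0.23 for all genes tested.

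In 56 of the 95 entries the libraries ran in the order 2, 10, 20 months without overlap, which was the case for 6.58% of all genes tested. At 2 months the members together held 13.98 to 14.4% of the FPKM summed over all genes (14.2 ± 0.191%, SD, n = 3). The share was 16.4 to 16.6% at 10 months (16.5 ± 0.132%, SD, n = 3) and 20.4 to 21.00% in the oldest animals (20.7 ± 0.294%, SD, n = 3), with no overlap between ages. Without the 20-month library 3, where muscle markers were high, 75 entries rose and 5 fell from 2 to 20 months.

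Members of both subunits rose. Of the large subunit entries 35, 43 and 38 rose and 0, 3 and 5 fell in the comparisons of 10 with 2, 20 with 2 and 20 with 10 months. Of the small subunit entries 25, 33 and 28 rose and 1, 2 and 1 fell. The summed FPKM of the large over that of the small subunit was 1.60 ± 0.0053, 1.58 ± 0.0117 and 1.56 ± 0.00327 from the youngest to the oldest age (SD, n = 3 each). The lowest 2-month ratio lay above the highest 10-month one, and the ratios at 10 and 20 months overlapped. The summed share of the large subunit went from 8.73 to 12.6% and that of the small subunit from 5.45 to 8.06% between 2 and 20 months.

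**Figure D1:**
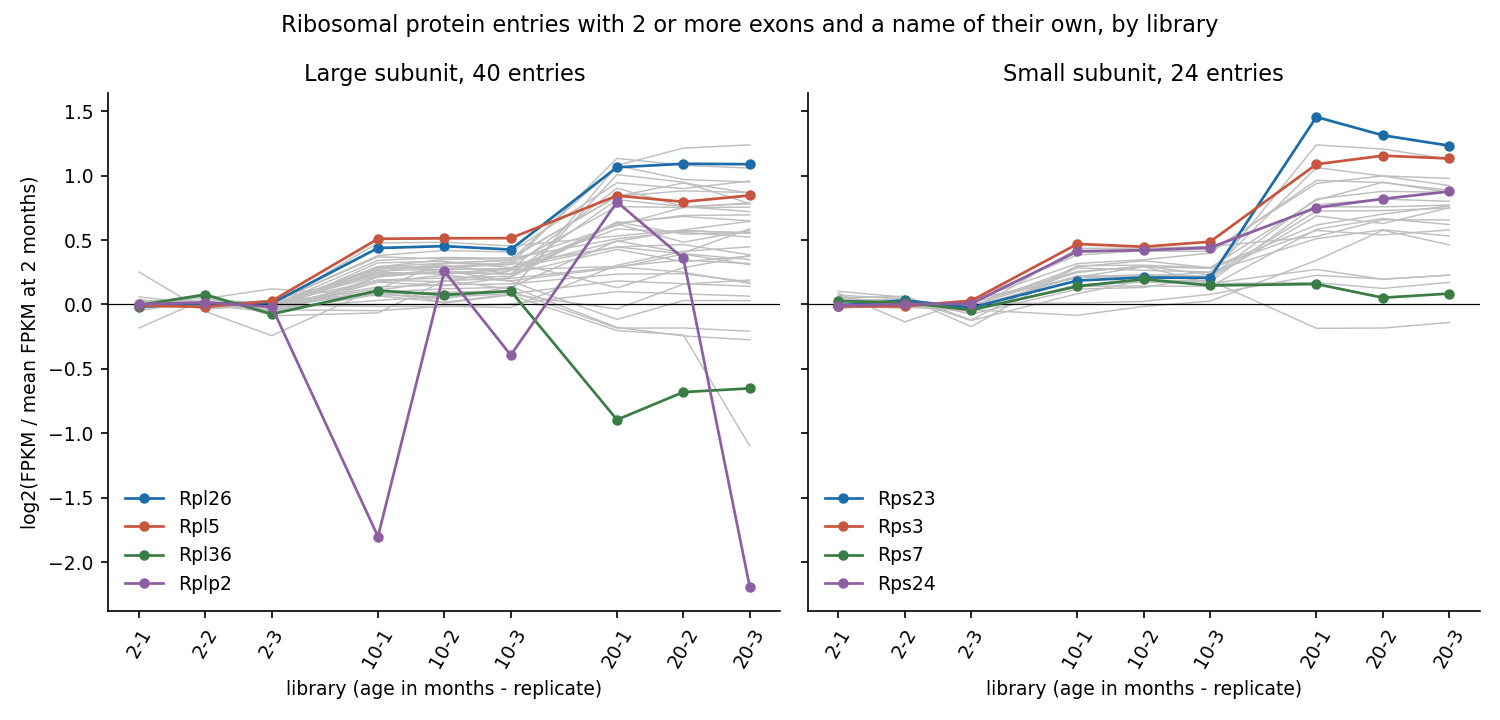
Each line joins the 9 libraries of 1 entry with 2 or more exons and a name of its own (40 of the large and 24 of the small subunit); the y axis is log2 of FPKM over its 2-month mean and the order of replicates has no meaning. Most lines step up at 10 and again at 20 months, Rpl36 steps down at 20 months, and Rplp2 scatters within an age.

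The rise was clearest among entries with several exons and a name of their own, which are least open to confusion with copies. Of these 64 entries, 50, 56 and 49 rose and 0, 4 and 6 fell in the 3 comparisons, and the median spread between replicates was 0.0377 on the log2 scale (SD). The 20 single-exon entries varied more, with a median SD of 0.183, and 5, 11 and 9 rose while 1, 1 and 0 fell. Their median change from 2 to 20 months was 0.95, and that of the 64 entries 0.58.

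Transcript length was compared because the ribosomal protein mRNAs are short. From 2 to 20 months, other genes of 300 to 600 bases had a median change of −0.01, and the 53 members of that length 0.69. Other genes of 2000 to 4000 bases had a median of −0.24. With the trend over length removed from all genes, 75 members rose and 5 fell, and their median was 0.70.

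**Figure D2:**
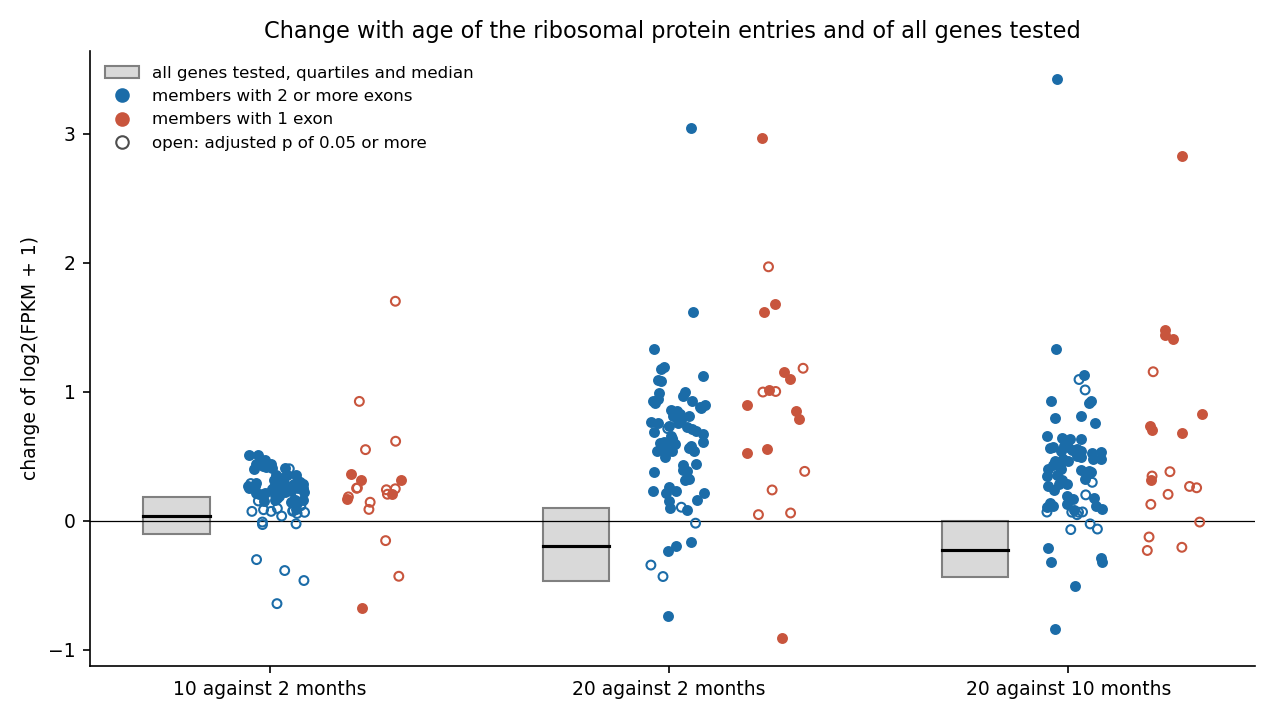
Change of log2(FPKM + 1) in the 3 comparisons; the grey box spans the quartiles of the 11708 genes tested with their median as a line, and points are the 75 members with 2 or more exons and the 20 with 1 exon, filled where the adjusted p was under 0.05. The members lie mainly above the boxes, with medians of 0.24, 0.67 and 0.39.

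Among entries with several exons and a name of their own, Rpl5 had the largest rise from 2 to 10 months. Rpl5 and Rpl11 form, with the ribosomal 5S RNA, a particle that can also bind the p53 regulator Mdm2. Rpl5 measured 1477, 1468 and 1515 FPKM at 2 months, 2117, 2123 and 2124 at 10 months and 2670.1, 2583 and 2673 at 20 months. The ages did not overlap, and it rose by log2 0.51 ± 0.03 (SE) by 10 months (limma adjusted p = 1.29e-05) and by 0.83 ± 0.03 by 20 months (limma adjusted p = 6.4e-08). Its partner Rpl11 measured 190.3, 187 and 187 FPKM, then 229.6, 231 and 233, then 256, 259.6 and 245. The gene-level FPKM of Rpl11 was thus higher at each later age. Its step from 10 to 20 months (log2 0.13 ± 0.03, limma adjusted p = 0.00316) was smaller than that of Rpl5 (0.32 ± 0.03), a difference that was not tested. The isoforms of Rpl11 lay at other levels than its gene-level FPKM and moved in opposite ways. From 10 to 20 months the mean of its main isoform, of 537 bases, went from 1277 to 1073 FPKM. That of its 905-base isoform went from 219 to 430 FPKM. The gene-level step was therefore not seen in the main isoform. Whether the gene-level step reflects the shift between these isoforms was not tested.

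Rpl23 and Rpl26 rose early and differed in what followed. Rpl23, another ribosomal protein known to bind Mdm2, measured 1336, 1316 and 1318 FPKM at 2 months, 1843, 1849 and 1813 at 10 months and 1913, 1977 and 2069.6 at 20 months. Its change was 0.47 ± 0.03 by 10 months and 0.11 ± 0.03 from there to 20 months, which turned to −0.049 with quantile normalization. Rpl26, which lies beside the exit of the tunnel for the growing chain, measured 679, 692 and 692 FPKM, then 932, 942 and 924, then 1439, 1467 and 1463. That is 0.44 ± 0.02 by 10 months and 0.64 ± 0.02 from 10 to 20 months, with no overlap between ages. Rpl10, a late-joining protein near the catalytic centre, measured 1160.0, 1187 and 1152 FPKM, then 1315, 1289.8 and 1349, then 1810.0, 1872 and 1829 (0.65 ± 0.03 from 2 to 20 months, limma adjusted p = 2.65e-07). Its 3 ages did not overlap.

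Some entries had their larger step after 10 months. Rpl23a, also at the tunnel exit, measured 1566, 1492 and 1524 FPKM at 2 months, 1660.5, 1908 and 1941 at 10 months and 3227, 3543 and 3606 at 20 months, steps of 0.26 ± 0.06 and 0.91 ± 0.06. Rpl41, the smallest ribosomal protein, measured 2616, 2650.1 and 2611 FPKM, then 2808, 2856 and 2881, then 3697, 3468 and 3945; its step to 10 months missed the threshold (limma adjusted p = 0.0749) although the libraries did not overlap. Rpl22l1, a paralog of Rpl22, measured 34.4, 36.5 and 32.4 FPKM at 2 months, 32.9, 39.2 and 37.4 at 10 months and 69.3, 66.5 and 59.3 at 20 months. It was level between the younger ages and rose by 0.82 ± 0.08 from 10 to 20 months (limma adjusted p = 2.94e-05); Rpl22 is not analysed here.

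Falls at 20 months were few among proteins of the large subunit. Rpl36 measured 1649.9, 1745 and 1572 FPKM at 2 months, 1783, 1744 and 1779 at 10 months and 891, 1033 and 1054 at 20 months. The 20-month libraries all lay below the others, with a change from 2 months of −0.74 ± 0.06 (limma adjusted p = 9.62e-06). Rpl29, which measured 1255, 1269 and 1301, then 1348, 1313 and 1404, then 1127, 1077 and 1055 FPKM, fell by 0.23 on the log2 scale from 2 to 20 months (limma adjusted p = 0.000444). Rpl34, named after its values were seen, changed by −0.21 ± 0.05 from 10 to 20 months (limma adjusted p = 0.00344) and by −0.02 from 2 to 20 months.

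The scale decides the smaller falls. Scaling the libraries by median-of-ratios factors moved each 20-month library by 0.14 to 0.17, each 2-month library by −0.07 to −0.06 and each 10-month library by −0.11 to −0.10 on the log2 scale. On that scale 82 members rose and 2 fell from 2 to 20 months, Rpl36 still fell (−0.51, limma adjusted p = 0.000201), and Rpl29 and Rplp1 (0.039) missed the threshold. From 10 to 20 months 76 rose and 1 fell on it, and Rpl34 changed sign (0.056). With quantile normalization 70 rose and 8 fell from 2 to 20 months, and 54 rose and 11 fell from 10 to 20 months.

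The stalk proteins, which recruit elongation factors to the large subunit, had small changes or large scatter. Rplp0, the base of the stalk, measured 1201, 1195 and 1191 FPKM at 2 months, 1183, 1183 and 1199 at 10 months and 1281, 1266 and 1250.5 at 20 months. Its libraries overlapped between 2 and 10 months, and the later step was 0.09 ± 0.02 (limma adjusted p = 0.00959), which turned to −0.10 with quantile normalization. Rplp1 measured 2139, 2169 and 2141 FPKM, then 2279, 2298 and 2311, then 1893, 1894 and 1862, a rise of 0.09 followed by a fall of 0.29 ± 0.02 on the log2 scale (limma adjusted p = 1.84e-05). With median-of-ratios scaling neither step passed (0.057 and −0.018, limma adjusted p = 0.136 and 0.595), and with quantile normalization the rise did not (0.052, limma adjusted p = 0.26).

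Its partner in the stalk, Rplp2, measured 313, 315 and 308 FPKM at 2 months but 89.5, 373 and 238 at 10 months and 542, 399.6 and 68.2 at 20 months. The 2-month libraries were even, the older ones lay both far above and far below them, and no change was called (limma adjusted p = 0.698 for 20 against 2 months, with an SE of 0.74). Rplp2 has a single entry in the table, and the source of this spread was not tested.

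In the small subunit, Rps23 had the largest change among entries with several exons and a name of their own. Rps23, which lies in the decoding centre, measured 902, 927 and 891 FPKM at 2 months, 1031, 1048 and 1046 at 10 months and 2486, 2253 and 2131 at 20 months. Its change was 0.20 ± 0.05 by 10 months and 1.33 ± 0.05 by 20 months (limma adjusted p = 1.17e-07). Rps3, at the entry of the mRNA channel, measured 563, 564 and 581, then 788, 777 and 798, then 1210.3, 1267 and 1248 FPKM, which is 0.47 ± 0.03 and 1.12 ± 0.03 over 2 months. Rps20 measured 546, 553 and 543, then 650.3, 674 and 642, then 1292, 1263 and 1196 FPKM (1.19 ± 0.04 from 2 to 20 months). In each of these genes the 3 ages did not overlap, and the largest step of Rps23 and Rps20 came after 10 months; Rps20, Rps23 and Rpl23a were named after their values were seen.

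Rps6, the substrate of the S6 kinases, measured 852, 808 and 786 FPKM at 2 months, 1102, 1104 and 1113 at 10 months and 1174, 1286 and 1284 at 20 months. It rose by 0.44 ± 0.04 by 10 months (limma adjusted p = 0.000161), and the further 0.17 ± 0.04 to 20 months turned to −0.025 with quantile normalization. Rps24, which is mutated in some families with Diamond-Blackfan anaemia, measured 1151, 1159.7 and 1163, then 1542, 1550.4 and 1572, then 1950.2, 2044 and 2126 FPKM. It rose at both steps, by 0.43 ± 0.03 and 0.39 ± 0.03. Rpsa, which also serves as a laminin-binding protein at the cell surface, measured 1846, 1801 and 1842, then 1843, 1860.0 and 1932, then 2141, 2097 and 2143 FPKM. Its change from 2 to 20 months was 0.22 ± 0.03 and became −0.020 with quantile normalization.

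Rps4y2 fell from 2 to 20 months (−0.91 ± 0.13, limma adjusted p = 0.000257). Rps4y2, a single-exon entry on chromosome 4, measured 10.5, 11.05 and 11.9 FPKM at 2 months, 6.74, 6.48 and 6.58 at 10 months and 6.12, 4.06 and 6.56 at 20 months. Rps4y2 was the only entry to fall by 10 months (−0.68 ± 0.13, limma adjusted p = 0.00517), and all its older libraries lay below the 2-month ones.

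The largest rises were those of single-exon entries and of near-identical copies. Rps29, listed as a single exon on chromosome 13, measured 7.65, 11.6 and 8.98 FPKM at 2 months, 8.52, 11.5 and 11.4 at 10 months and 91.7, 80.2 and 68.9 at 20 months. Rpl37, a single exon on chromosome 10, measured 191, 187 and 187, then 213, 213 and 226, then 662, 591 and 566 FPKM. Rps18l1, also a single exon on chromosome 10, measured 46.7, 46.9 and 41.3, then 54.2, 52.2 and 49.7, then 162, 138 and 121 FPKM. Of these, only Rpl37 was called from 2 to 10 months (0.21 ± 0.05, limma adjusted p = 0.0206), and all 3 rose by 20 months, by 2.97 ± 0.16, 1.68 ± 0.05 and 1.62 ± 0.10 against 2 months.

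Whether reads counted for these single-exon entries come from the entry or from a gene of several exons with similar sequence was not tested. Rps18, the gene with 5 exons closest in name to Rps18l1, had a change of 0.80 ± 0.03 from 2 to 20 months, beside 1.62 ± 0.10 for Rps18l1. The read length estimated for the 20-month libraries differed as well, as given above.

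More than 1 entry was found for 8 names, 18 entries in all, and some of their levels were split unevenly between libraries. Rps27a encodes ubiquitin fused to a small subunit protein. Its entry with 5 exons on chromosome 14 measured 999, 798 and 634 FPKM at 2 months, 1003, 1099 and 1064 at 10 months and 918, 1318 and 1475 at 20 months. The single-exon entry on chromosome 5 measured 521, 714 and 879, then 895, 789 and 788, then 1208, 819 and 735 FPKM. Where one was high in a library of an age the other was low, and neither alone was called from 2 to 10 months.

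The sum of both Rps27a entries was 1520.1, 1511 and 1513 FPKM at 2 months, 1898, 1887 and 1852 at 10 months and 2125, 2137 and 2210.3 at 20 months. Its spread between replicates was 0.0209 on the log2 scale (SD), and the ages did not overlap. The sum rose by 0.31 ± 0.03 by 10 months (limma adjusted p = 7.43e-05) and by 0.51 ± 0.03 by 20 months (limma adjusted p = 5.82e-07).

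Rps19l2 has an entry with 6 exons on chromosome 1 and another on chromosome 9. The first entry measured 431, 391 and 478, then 626, 588 and 640.1, then 745, 818 and 887 FPKM, and the second 537, 582 and 463, then 541, 585 and 532, then 873, 790.3 and 751. Their sum was 968, 973 and 941, then 1167, 1172 and 1172, then 1618, 1608 and 1637 FPKM. The first entry alone rose from 2 to 10 months (0.51 ± 0.08, limma adjusted p = 0.00179) and the second did not pass (0.07 ± 0.09, limma adjusted p = 0.554), while the sum rose by 0.29 ± 0.03 (limma adjusted p = 8.51e-05). The sum varied less between replicates than each of its entries for 4 of the 8 names (Rpl7a, Rpl32, Rps19l2 and Rps27a).

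The sum was still uneven for some names. The 2 entries of Rpl7a on chromosome 3, each with 7 exons, summed to 268, 98.3 and 167 FPKM at 2 months, 201, 102 and 322 at 10 months and 674, 663 and 653 at 20 months. The sum rose from 2 to 20 months by 2.01 ± 0.42 (limma adjusted p = 0.00238), while the 2- and 10-month libraries were uneven and overlapped. The sum of the 2 entries of Rpl35al1 on chromosome 12 was 66.6, 97.5 and 59.7, then 67.5, 32.2 and 74.8, then 91.4, 372 and 46.9 FPKM, with no call in any comparison. Rpl21, with 4 entries, summed to 1453, 1368 and 1396, then 1995, 1759 and 1673, then 2466, 2535 and 2759 FPKM and rose at both steps (0.36 ± 0.07 and 0.52 ± 0.07).

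The remaining shared names were Rps4x, Rpl32 and Rps10. Rps4x, on the X chromosome with 7 exons and on chromosome 4 with 1, summed to 1011, 1031 and 1054, then 1235, 1242 and 1246, then 1695, 1748 and 1762 FPKM. Rpl32 summed to 933, 917 and 889, then 1033, 1052 and 1055, then 1627, 1581 and 1577 FPKM, with its single-exon entry on chromosome 6 at 62.1, 81.8 and 78.1 FPKM at 2 months and 45.3, 66.0 and 53.5 at 10 months (−0.43 ± 0.16, limma adjusted p = 0.076). Rps10 summed to 754, 756 and 716, then 834, 889 and 953, then 961, 1104 and 1080.2 FPKM. All 3 sums were called higher at each step.

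**Figure D3:**
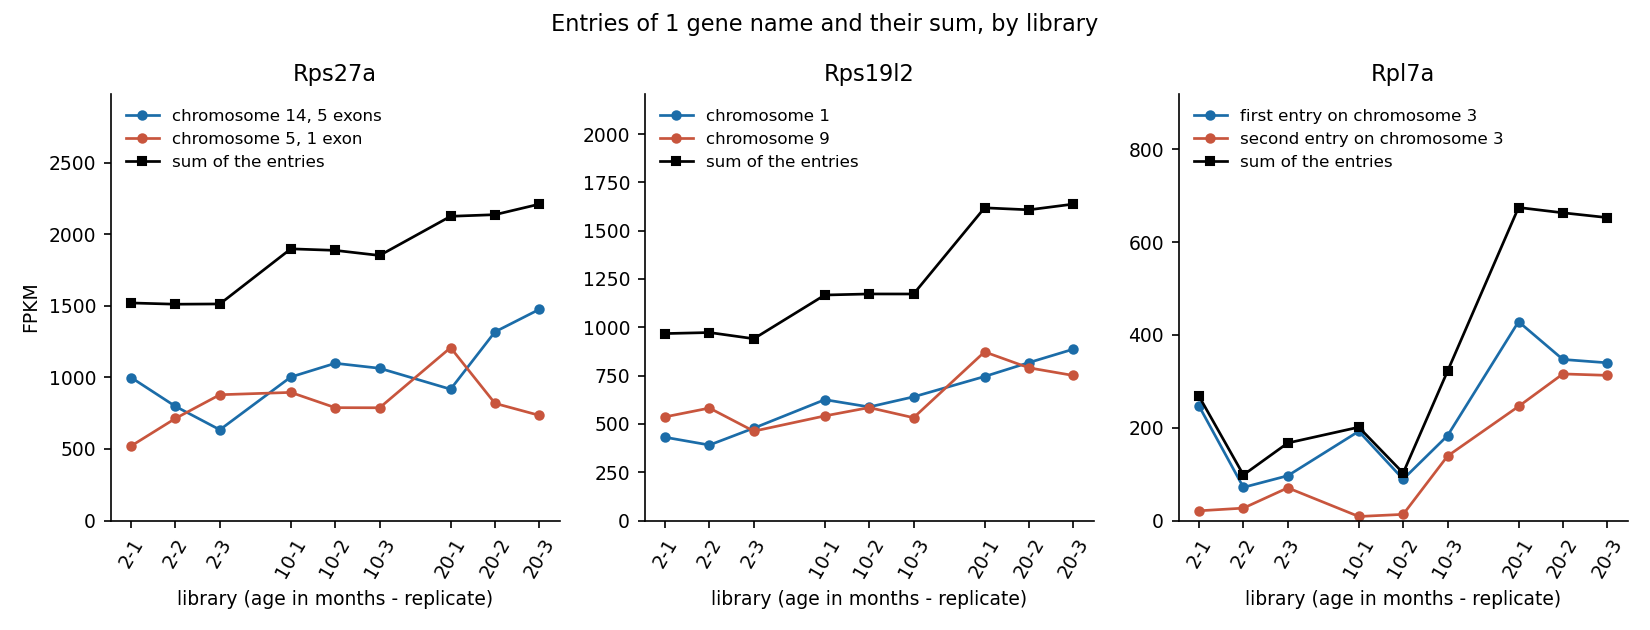
FPKM of the entries that share a name (circles) and of their sum (squares) in the 9 libraries, for Rps27a, Rps19l2 and Rpl7a; lines join libraries and the order of replicates has no meaning. The entries of Rps27a and Rps19l2 vary in opposite ways within an age while their sums are even, and the Rpl7a sum is uneven at 2 and 10 months and 653 to 674 FPKM at 20 months.

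Paralogs, and the stalk partners Rplp1 and Rplp2, were compared through the log2 ratio of their levels, with an exact permutation test of the F statistic over the 1680 assignments of 9 libraries to 3 ages. Tests were made for 6 pairs, the smallest p the design allows is 0.00357, and p-values were adjusted over the 6 pairs. Rpl7 over Rpl7l1 was 2.51, 2.32 and 2.19 at 2 months, 2.56, 2.64 and 2.60 at 10 months and 2.98, 2.93 and 2.94 at 20 months. The ages did not overlap, and the difference from 2 to 20 months was 0.61 (exact permutation adjusted p = 0.0107). Rpl7, a large subunit protein, carried it: it measured 144, 146 and 141, then 176, 179 and 182, then 219.6, 242 and 248 FPKM, and Rpl7l1 stayed between 24.3 and 31.5 FPKM.

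Rps27 over Rps27l was 7.35, 7.30 and 7.41 at 2 months, 7.65, 7.66 and 7.49 at 10 months and 7.19, 6.92 and 7.08 at 20 months. It was thus 0.25 higher at 10 and 0.29 lower at 20 months than at 2 months (exact permutation adjusted p = 0.0107). Rps27l, a paralog known as a p53 target, measured 21.4, 21.9 and 20.7, then 20.1, 21.1 and 21.7, then 27.1, 31.8 and 29.4 FPKM. Rps27 itself measured 3659.9, 3596 and 3707, then 4231, 4479 and 4090.3, then 4109, 3984 and 4117 FPKM, so its 10- and 20-month libraries overlapped.

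The other pairs did not pass after adjustment. Rpl10 over Rpl10l, whose paralog is known from the testis and here is a single-exon entry of 15.6 to 20.6 FPKM, differed by 0.59 between 2 and 20 months (exact permutation adjusted p = 0.0714). Rpl36a over Rpl36al differed by 0.41 (exact permutation adjusted p = 0.0804). Rpl39 over Rpl39l differed by 1.43 (exact permutation adjusted p = 0.09), with Rpl39, a single-exon entry on chromosome 14, at 30.1 to 103 FPKM. Rplp1 over Rplp2 differed by 0.15 (exact permutation adjusted p = 0.729), with the spread of Rplp2 described above, and by −0.76 without the 20-month library 3.

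Rpl39l, another paralog known from the testis, measured 7.57, 7.40 and 4.07 FPKM at 20 months and 8.78 to 9.53 at 10 months, a fall of 0.51 on the log2 scale (limma adjusted p = 0.0433). The low value was that of the 20-month library 3, and without it the change was −0.26 (limma adjusted p = 0.0787). In the same library Rpl3l, a paralog of skeletal and heart muscle, stood at 0.932 FPKM, while it was 0 to 0.261 in the other 8. Muscle markers summed to 152 FPKM there. Rpl3 measured 564, 581 and 575 FPKM at 20 months, so that library did not stand apart for it, and it rose by 0.86 ± 0.02 from 2 months (limma adjusted p = 3.15e-08).

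Use of single isoforms was compared by a limma fit of log2 ratios, each isoform against all others of its gene, for isoforms with a mean share of 10 to 90%. Of the members, 22 isoforms of 11 genes could be tested, among 2771 isoforms of 1328 genes. From 2 to 10 months limma called 0 member isoforms, 0 had an unadjusted p below 0.05, and 0.253% of all tested isoforms were called. From 2 to 20 months 10 isoforms of 5 member genes were called, where the share among all was 11.1%, and from 10 to 20 months 12 isoforms of 6 genes, where it was 7.98%. The genes were Rpl11, Rpl13a, Rpl14, Rps7 and Rps16, joined by Rps4x from 10 to 20 months. In each gene called, both tested isoforms were called and moved in opposite ways. Each ratio sets an isoform against the others of its gene, so the calls within a gene are not independent.

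Rps16 had the smallest adjusted p. Its 806-base isoform held 55.9, 55.4 and 54.6% of the gene's isoform FPKM at 2 months, 53.7, 54.8 and 54.7% at 10 months and 83.2, 83.6 and 84.2% at 20 months, while a 603-base isoform held 43.5 to 45.7% and then 14.2 to 15.2%. The 806-base isoform changed by 2.05 ± 0.10 from 2 to 20 months (limma adjusted p = 0.000193). The ages of 2 and 10 months overlapped, and both lay far from 20 months.

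In Rpl13a a 656-base isoform held 40.2, 37.1 and 42.5% at 2 months, 38.1, 36.7 and 38.4% at 10 months and 1.68, 0.494 and 0.411% at 20 months. A 1039-base isoform took its place, with 50.4 to 53.2% at the younger ages and 83.8 to 95.03% at 20 months. Rpl13a is known outside the ribosome for silencing inflammatory mRNAs. Its gene-level FPKM was 358, 363 and 373, then 429.6, 432 and 439.6, then 447, 463 and 454, and the small last step (0.07) became −0.14 when isoform FPKM were simply added.

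The 905-base isoform of Rpl11 held 12.8, 14.5 and 16.1%, then 18.8, 12.5 and 12.8%, then 28.7, 28.7 and 28.3% (1.24 ± 0.22 from 2 to 20 months, limma adjusted p = 0.0162). In Rps7 the 701-base isoform held 25.0 to 25.1%, then 24.3 to 26.2%, then 34.2 to 42.5% (0.97 ± 0.16, limma adjusted p = 0.0135). In Rpl14 the 716-base isoform held 22.0 to 30.1%, then 20.4 to 28.4%, then 48.2 to 54.1% (1.58 ± 0.23, limma adjusted p = 0.00972). The longer isoform gained in these 5 genes, and the shorter one in Rps4x, where the 789-base isoform went from 74.1 to 75.2% at 10 months to 80.3 to 82.1% at 20 months (0.57 ± 0.12, limma adjusted p = 0.0314). The estimated read length also differed between 20 months and the younger ages, and its part in these shares was not tested.

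Rpl3 showed how uncertain an isoform split can be. Its 1298-base isoform held 0% in the 2-month library 1 and 94.3 and 96.2% in the others, then 94.7, 0 and 0% at 10 months, then 98.6, 97.6 and 97.5% at 20 months. In the 3 libraries where it was listed at 0, a 1212-base isoform held 93.8 to 94.02%, and in the other 6 that isoform held at most 0.0728%. The gene's FPKM was even in the same libraries (314, 313 and 317 at 2 months), so the split varied and the total did not.

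**Figure D4:**
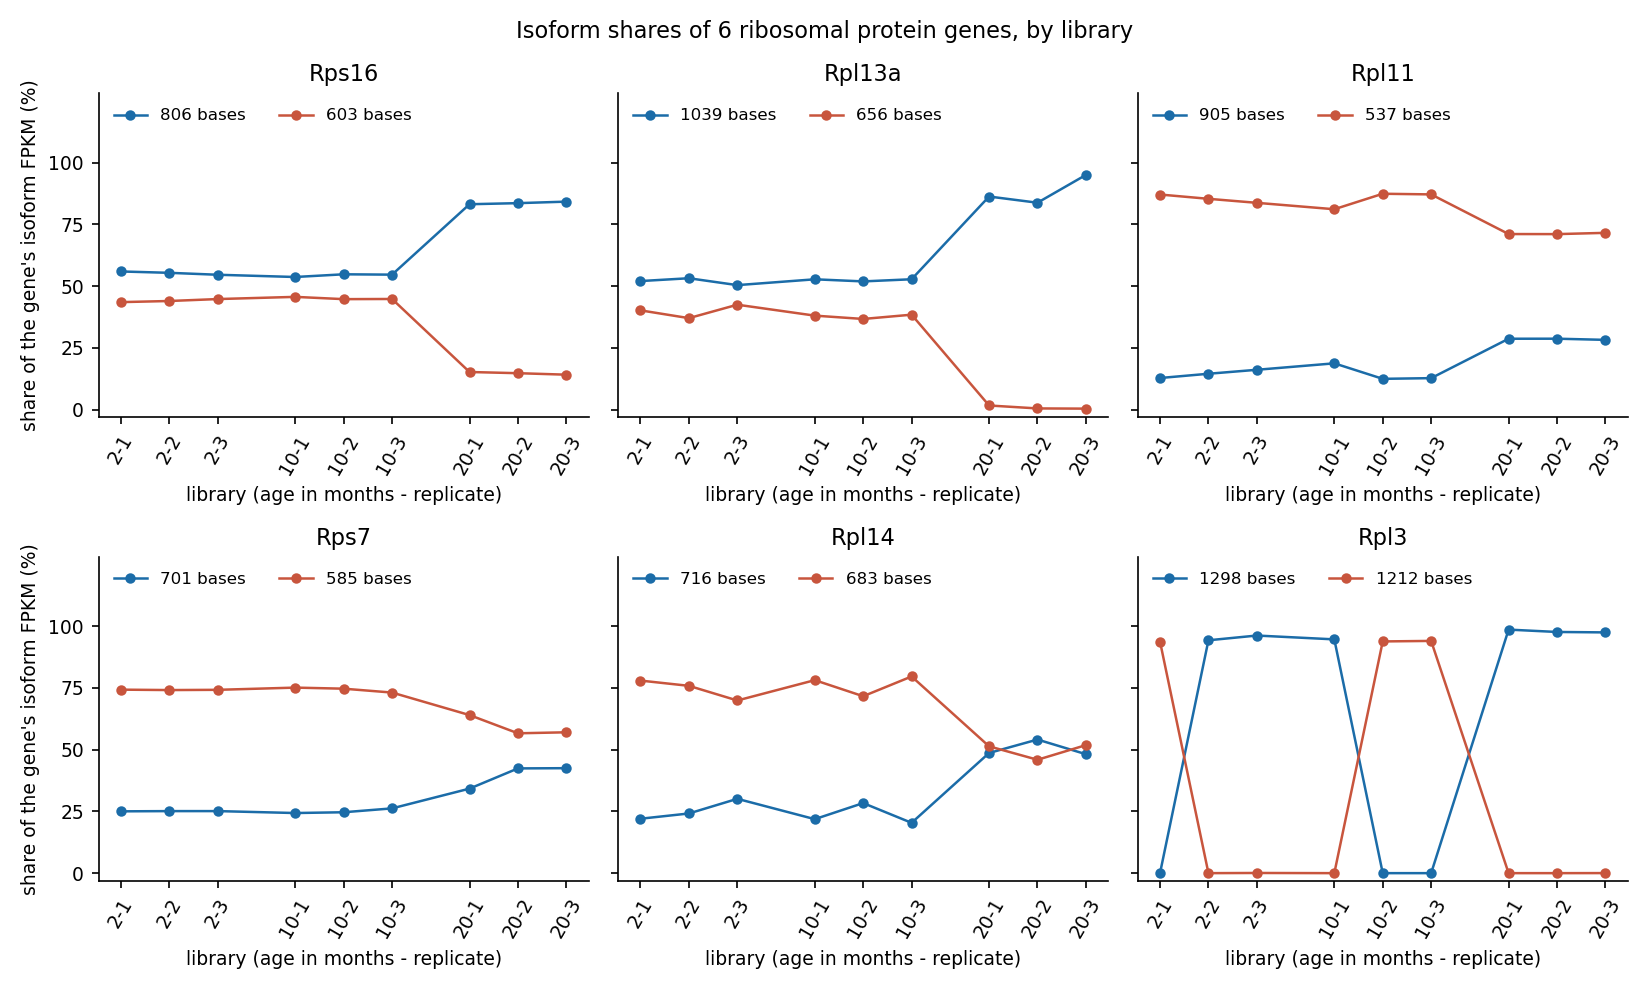
Share of the gene's summed isoform FPKM in percent for the isoforms of Rps16, Rpl13a, Rpl11, Rps7, Rpl14 and Rpl3 with a mean share of at least 10% at some age, in the 9 libraries; lines join libraries and isoforms are named by their length. In the first 5 genes the 20-month libraries stand apart from the others, and in Rpl3 the isoforms swap between replicates.

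Ribosomal proteins whose names fall outside the naming rule were looked at as well. Rack1, the scaffold protein of the small subunit, measured 205, 203 and 199.8 FPKM, then 260.2, 256 and 264, then 364, 374 and 358, and rose at both steps (0.36 ± 0.03 and 0.49 ± 0.03). Fau, whose product is cleaved to a small subunit protein, measured 122, 102 and 90.9, then 107, 111 and 113, then 193, 48.9 and 147 FPKM, with no call.

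The other genes of ribosome production were taken from lists chosen for their function, and these lists did not move alike. Most of the other TOP mRNAs rose by 20 months, while each of the later lists held both rises and falls from 2 to 20 months. Of 16 other mRNAs known as TOP mRNAs, 12 rose and 2 fell (Eif3f and Vim) from 2 to 10 months, where 19% and 11.4% of all genes did. From 2 to 20 months 15 rose and 0 fell (18.6% and 49.6% of all genes), and from 10 to 20 months 13 rose and 0 fell (11.4% and 53.3% of all genes). Their median change from 2 to 20 months was 0.55, beside 0.67 for the ribosomal proteins and −0.20 for all genes. The translation elongation factor subunit Eef1b2 measured 115, 113 and 116, then 137, 142 and 133, then 211, 210.1 and 209.8 FPKM (0.87 ± 0.03, limma adjusted p = 7.56e-08). Eef1d, from the same complex, measured 51.6, 52.3 and 50.8, then 63.4, 62.2 and 63.1, then 88.7, 88.1 and 89.7 FPKM, and Npm1, a nucleolar chaperone, 175, 168 and 179.8, then 239, 236 and 245, then 345, 382 and 389 FPKM. In these 3 genes the ages did not overlap.

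Among 47 factors of ribosomal RNA processing and ribosome assembly, 19 rose and 0 fell from 2 to 10 months, where 19% and 11.4% of all genes did. From 2 to 20 months 16 rose and 17 fell (18.6% and 49.6% of all genes), and from 10 to 20 months 7 rose and 24 fell (11.4% and 53.3% of all genes). Their median change from 2 to 20 months was −0.01. Nop58, a core protein of the particles that methylate ribosomal RNA, measured 11.9, 11.9 and 10.97, then 20.3, 19.3 and 18.7, then 35.8, 37.8 and 38.4 FPKM (1.60 ± 0.05, limma adjusted p = 4.44e-08). Dkc1, the pseudouridine synthase of ribosomal RNA, measured 15.4, 13.7 and 14.4, then 17.2, 18.3 and 18.04, then 34.7, 33.3 and 35.1 FPKM. Gnl3, a nucleolar GTPase, measured 12.3, 10.9 and 12.0, then 18.1, 18.3 and 17.8, then 20.8, 19.5 and 21.0 FPKM. Nop16, a nucleolar assembly factor of the large subunit, fell from 14.99, 15.2 and 14.4 FPKM at 2 months to 8.96, 9.51 and 8.10 at 20 months (−0.69 ± 0.06, limma adjusted p = 9.15e-06).

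Of 19 genes of RNA polymerase I and ribosomal DNA transcription, 4 rose and 0 fell by 10 months, a share of risers (21.1%) near the 19% of all genes. Between 2 and 20 months 6 rose and 5 fell (18.6% and 49.6% of all genes), and from 10 to 20 months 6 rose and 9 fell (11.4% and 53.3% of all genes). Taf1d, a subunit of the selectivity factor, measured 5.54, 4.17 and 4.22, then 8.08, 7.96 and 8.27, then 15.2, 14.5 and 17.1 FPKM. Polr1b, the second-largest subunit of the polymerase, measured 6.001, 5.93 and 5.76 FPKM at 10 months and 3.31, 2.97 and 3.35 at 20 months (−0.71 ± 0.07, limma adjusted p = 3.32e-05). Polr1c, shared with RNA polymerase III, rose by 0.46 ± 0.05 from 2 to 20 months. Subunits of the same enzyme thus had changes of opposite sign.

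Of 18 binding and quality-control proteins of ribosomes, 3 rose and 0 fell by 10 months, a share of risers (16.7%) near the 19% of all genes. Between 2 and 20 months 6 rose and 7 fell (18.6% and 49.6% of all genes), and from 10 to 20 months 2 rose and 11 fell (11.4% and 53.3% of all genes). Tsr2, the chaperone of the small subunit protein Rps26, rose by 0.35 ± 0.06 by 10 months (limma adjusted p = 0.00323). Eif5a, an elongation factor for stalled ribosomes, measured 245, 240.4 and 234, then 236, 229.8 and 226, then 193, 188 and 171 FPKM (−0.38 ± 0.05 from 2 to 20 months, limma adjusted p = 7.21e-05). Heatr3, which carries Rpl5 to the nucleus, was lower at 20 months (1.82, 2.26 and 2.14 FPKM) than at 10 months (4.02, 3.40 and 3.38), while Rpl5 was higher.

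Of 13 genes of mTORC1 and the S6 kinases, 4 rose and 0 fell by 10 months (19% and 11.4% of all genes). From 2 to 20 months 1 rose and 9 fell (18.6% and 49.6% of all genes), and from 10 to 20 months 0 rose and 9 fell (11.4% and 53.3% of all genes). Their median change from 2 to 20 months was −0.43. Eif4ebp2, a repressor of cap-dependent translation, measured 28.4, 28.1 and 28.02, then 31.5, 31.0 and 31.2, then 18.5, 18.7 and 16.6 FPKM (−0.62 ± 0.05, limma adjusted p = 3.8e-06). Akt1s1, an inhibitory subunit of mTORC1, fell by 0.60 on the log2 scale to 24.6, 25.0 and 24.5 FPKM. Tsc1, part of the complex that restrains mTORC1, measured 16.6, 17.1 and 16.3, then 20.3, 19.8 and 20.3, then 10.9, 8.71 and 10.3 FPKM. The kinase Mtor itself also fell, from 7.36, 7.27 and 7.77 FPKM at 2 months to 4.75, 4.96 and 4.70 at 20 months (−0.54 ± 0.05, limma adjusted p = 1.1e-05). Both parts and inhibitors of the complex were thus among those that fell from 2 to 20 months, as were 49.6% of all genes.

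**Figure D5:**
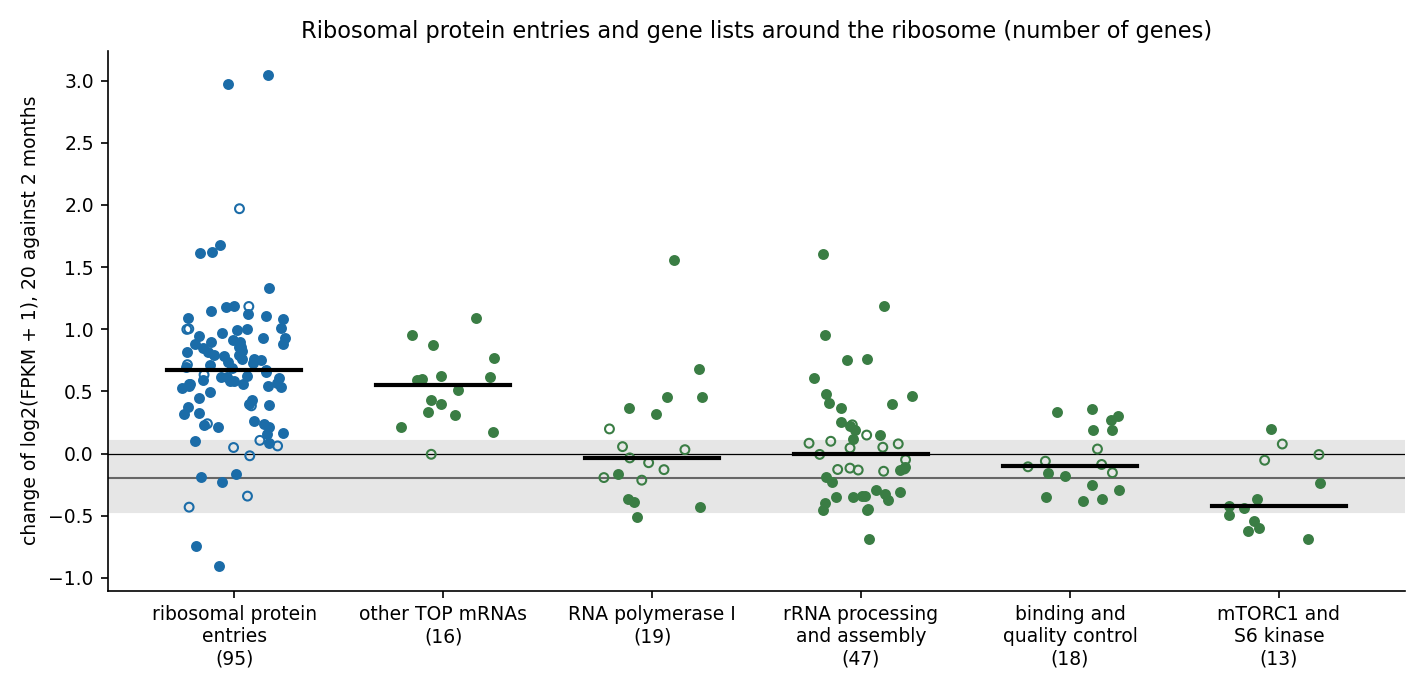
Change of log2(FPKM + 1) from 2 to 20 months for the 95 ribosomal protein entries and for 5 lists of genes around the ribosome, filled where the adjusted p was under 0.05; bars are list medians, the grey band spans the quartiles of all genes tested and the grey line is their median of −0.20. The ribosomal proteins and the other TOP mRNAs lie mainly above the band, with medians of 0.67 and 0.55, and the other lists spread around or below 0.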

How the data were processed

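Per the file headers, the deposited gene table holds FPKM for each gene and library. The transcript table holds FPKM and coverage as deposited by the authors. StringTie 1.3.4d, HISAT2 2.0.4, cutadapt 1.9, edgeR and DESeq2 are listed in the submitters' processing notes, with no roles. Neither genome build, annotation version nor strandedness is stated (not given in the sources used here), so antisense partners cannot be told apart, and reads of near-identical copies may have been divided between entries. Bases per library were computed from coverage and FPKM.

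Genes reaching an FPKM of 1 in 3 or more of 9 libraries entered 1 limma fit of log2(FPKM + 1) for the 3 ages, with trended empirical Bayes variances (limma 3.58.1, R 4.3.3). This scale understates changes of low genes. Isoform ratios had 0.5 added to both terms, for genes with a mean summed FPKM of at least 5. The fit was tested on simulated data. The members and gene lists were chosen with earlier results of these data known.

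The text names, per comparison, the 5 called members with the largest change in each direction and a mean FPKM of at least 5 in the higher group, a set fixed by function, paralog pairs, all shared names, up to 6 called isoforms, and up to 2 called genes per list and comparison; less telling ones were left out, and some items are not reported here. Rpl14, Rpl23a, Rpl34, Rps7, Rps16, Rps18, Rps20, Rps23, Eif3f, Mtor, Nop16 and Vim were added after their values were seen.

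Alternatives were other pseudocounts (0.1 and 5), filters, scalings, a length correction, summed entries, isoform sums, array weights, a replicate block, only the 2 ages compared, and leaving out each library.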

Additional observations from a re-analysis of the deposited data

How the results depend on the processing

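No alternative listed here turned the direction of the members' median. The median log2 change from 2 to 10 months was 0.22 with the length trend removed and 0.20 with median-of-ratios scaling or quantile normalization, and leaving out 1 library gave 0.22 to 0.25. From 2 to 20 months it was 0.76 with a fixed sum over other genes, 0.70 with the length trend removed, 0.90 with median-of-ratios scaling, 0.50 with quantile normalization, 0.58 over the 64 entries with several exons and a name of their own, and 0.61 to 0.74 without 1 library. From 10 to 20 months these values were 0.46, 0.43, 0.66, 0.27, 0.36 and 0.36 to 0.43. Members called lower numbered 0 among the 64 entries and 1 to 2 without 1 library from 2 to 10 months, 2 with median-of-ratios scaling and 8 with quantile normalization from 2 to 20 months, and 1 and 11 from 10 to 20 months. The members' share of summed FPKM was 15.2, 17.7 and 22.1% at the 3 ages with isoform FPKM added, and 12.4, 14.3 and 17.6% over the 64 entries. Start-site runs were found in 58.9% of members within 5 bases.

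Among changes called in either fit, single members changed sign under 4 alternatives. With quantile normalization these were Rplp0 (−0.16 from 2 to 20 and −0.10 from 10 to 20 months), Rpsa (−0.020) and Rps7 (−0.11) from 2 to 20 months, and Rps6 (−0.025) and Rpl23 (−0.049) from 10 to 20 months. With median-of-ratios scaling they were Rplp1 (0.039) and Rpl34 (0.21) from 2 to 20 months, and Rps27 (0.20), Rps7 (0.21) and Rpl34 (0.056) from 10 to 20 months. Summed entries changed the sign for Rpl32 on chromosome 6 from 2 to 10 months (0.20) and Rps10 on chromosome 6 from 10 to 20 months (0.23), and added isoforms did for Rpl13a from 10 to 20 months (−0.14). The sums and the added isoforms are other quantities by construction, and the cause of the other reversals was not tested.

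Whether libraries of the same number pair was not settled. Correlations of their deviations ran from −0.0400 to 0.0491 for the same and from −0.0734 to 0.0628 for different numbers, all near 0. Yet 8 of 9 libraries were closer on average to their own number. With the replicate block, 2 members fell from 2 to 10 months, 7 isoforms were called from 10 to 20 months, and the paralog ratios Rpl7 over Rpl7l1 (0.61) and Rps27 over Rps27l (−0.29) had an exact permutation adjusted p of 0.0556. The block allows fewer assignments, so its smallest p is larger, too large for these pairs to pass alone after adjustment. This test therefore cannot tell whether the block weakens them. Rpl10 over Rpl10l passed with a pseudocount of 5 (0.60, exact permutation adjusted p = 0.0429). Without 1 library the paralog differences ran from 0.57 to 0.61 for Rpl10, 0.25 to 0.50 for Rpl36a, 1.12 to 1.70 for Rpl39, and −0.76 to 0.72 for Rplp1 over Rplp2, which did not pass in any. Rpl10 and Rpl39 passed without the 10-month library 3 and Rpl36a without the 2-month library 1 (exact permutation adjusted p = 0.0143, 0.0482 and 0.0429). Without 1 library, the called isoforms from 10 to 20 months ran from 5 (without the 10-month library 2) to 12, with 7 without the 10-month library 3. Depth in reads is unknown, and the 3 libraries per age limit the precision.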
